A study of Mus musculus with 2 samples.

Results

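Colony-stimulating factors are secreted or membrane-bound proteins that keep myeloid cells alive and drive their growth and maturation. The genes described here are Csf1, which encodes the macrophage growth factor M-CSF, and the receptor genes Csf1r, Csf2ra, Csf2rb, Csf2rb2, Csf3r, Kit and Flt3. They are 8 of the 48709 genes counted and were taken by gene symbol, each with 1 row in both matrices. Transcripts were counted in single mouse cochlear cells that had been selected with beads against CD11b, an integrin of neutrophils, monocytes and macrophages. A first library came from cochleae with an implanted electrode, taken 33 days after implantation per the series design text, and a second from non-implanted cochleae. Both came from C57BL/6J/B6 mice of the genotype CX3CR1+/GFP Thy1+/YFP, with males and females pooled, so both groups carry the same reporter alleles. The design text speaks of contralateral cochleae where the labels say non-implanted, and gives no age or number of animals. The protocol in the labels names 4 P1 and 4 P30 mice and another tissue, the stria vascularis, so the age of the implanted mice is uncertain. The labels do not say whether the electrode released a drug.

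M-CSF acts through the receptor tyrosine kinase encoded by Csf1r, on which monocytes, macrophages and osteoclasts depend. GM-CSF is bound by the alpha chain encoded by Csf2ra together with a signalling chain encoded by Csf2rb, and in the mouse the closely related chain encoded by Csf2rb2 serves the interleukin 3 receptor. Csf3r encodes the receptor of G-CSF, the main growth factor of neutrophils, whose receptor is abundant on mature cells. Kit and Flt3 encode receptor tyrosine kinases for stem cell factor and the Flt3 ligand. They are known from blood stem and progenitor cells, Kit also from mast cells, and Flt3 also from dendritic cells.

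After filtering, 3065 implanted and 3411 non-implanted cells remained, with 18424595 and 20374205 UMIs (unique molecular identifiers, each standing for a captured transcript) and a median of 4237 and 4150 UMIs per cell. The libraries shared 5 cell barcodes among these cells. Clusters were built without the 8 genes and without their pathway genes and were named from marker lists, so that a name ending in "-like" rests on transcripts alone. The neutrophil classes were promyelocyte-like (125 implanted and 142 non-implanted cells), cycling precursor-like (268 and 263), immature (737 and 835), transitional (342 and 481), mature (281 and 467) and activated neutrophil-like (545 and 576). The others were monocyte-like (271 and 227), macrophage-like (284 and 243), osteoclast-like (11 and 28), B cell-like (40 and 32) and erythroid-like cells (78 and 41). Clusters 15 (42 and 43 cells) and 16 (41 and 33) stayed unnamed. Ptprc, the pan-leukocyte gene, was detected in 91.6% of cells, but Itgam, the gene of CD11b itself, was listed at 0 UMIs in each library. Each group is 1 library, so no difference between them has a replicate check, and all intervals cover counting error only.

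Csf1 lies at chr3:107741048-107760469 (minus strand), Csf2ra at chr19:61223957-61228429 (minus) and Csf3r at chr4:126024550-126044440 (plus), in the GENCODE M21 annotation of GRCm38. Kit lies at chr5:75574916-75656722 (plus) and Flt3 at chr5:147330741-147400489 (minus). Csf2rb at chr15:78325752-78353847 (plus) and Csf2rb2 at chr15:78282507-78305721 (minus) are neighbours on chromosome 15. All are protein-coding, and their whole gene spans are given. The coding sequences of the Csf2rb pair were identical at 95.2% of 2628 aligned bases, with a longest identical run of 242 bases. In the last 500 bases of the annotated transcripts, where 3' libraries read, identity was 83.1% of 473 aligned bases. How reads that match both were counted is not given in the sources used here, so the split between these genes is uncertain. The first 90 coding bases are shown because they make the near-identity visible, with the 3 differing bases in capitals (5' to 3', GENCODE M21 transcripts).
Csf2rb: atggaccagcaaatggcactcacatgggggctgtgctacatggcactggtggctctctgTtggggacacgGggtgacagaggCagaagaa
Csf2rb2: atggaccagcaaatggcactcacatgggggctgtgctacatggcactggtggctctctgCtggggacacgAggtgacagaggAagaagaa

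The promoter of the ligand gene is shown because, among the named classes, Csf1 had its highest level in cells defined by inflammatory genes. These are the 250 bases before the RefSeq start of Csf1, chr3:107760470-107760719 on the minus strand (RefSeq, GRCm38.p6), with the match to the consensus of the inflammatory factor NF-kB in capitals.
Csf1: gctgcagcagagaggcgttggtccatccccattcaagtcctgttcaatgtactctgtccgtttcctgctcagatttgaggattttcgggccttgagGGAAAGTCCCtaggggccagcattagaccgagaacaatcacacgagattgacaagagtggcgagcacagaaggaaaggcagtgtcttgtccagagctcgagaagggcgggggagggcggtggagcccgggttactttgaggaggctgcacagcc
The general kappaB consensus was searched on both strands and matched once, on the opposite strand, 154 bases before the start. Narrower spellings had been searched before this one, so the match and its share over all windows are a description only. Of the 32851 promoter windows of that length, 1281 (3.90%) held it. Of the 8 genes, 6 had a promoter entry (not Csf1r or Csf2rb), and Csf1 was the only match among them. An ETS core, GAGGAA, occurs in 23.3% of all windows and was found in Csf3r, Csf2ra, Csf2rb2 and Kit. A C/EBP core, TTNNGNAA, occurs in 36.8% of windows and was found in Csf2ra. These matches are letters in a window, not binding sites.

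Csf1 transcripts came mostly from late neutrophils. Levels are UMIs per 1e6 UMIs of the class (CPM), given with an exact Poisson 95% interval. In activated neutrophil-like cells, whose markers are chemokine and inflammatory genes, implanted cells had 301 CPM of Csf1 (273 to 330) and non-implanted cells 327 (300 to 357). Mature neutrophil-like cells had 114 and 107 CPM, and monocyte-like cells 2.74 and 7.20. Both libraries therefore had the same order, with activated above mature cells and intervals that did not overlap. Of the 2 activated clusters, cluster 7 scored slightly higher for mature than for activated markers and took its name from its leading genes. In cluster 4, the other one, Csf1 was 210 CPM (183 to 240) and 209 (179 to 242), also above the intervals of the mature class (90.7 to 141 and 89.2 to 127). Of all Csf1 UMIs, 54.6% were in activated and 12.4% in mature neutrophil-like cells, which held 7.71% and 5.04% of the UMIs of all genes. Macrophage-like cells added 9.16%, at 64.7 and 26.4 CPM.

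Csf1 was uneven within these classes. Of the activated clusters, cluster 7 (led by Csf1 itself, Il1b and Ccl4 among all genes) had 520 and 469 CPM and cluster 4 was led by Acod1, an enzyme gene of inflammatory myeloid cells. Csf1 UMIs were found in 37.2% and 34.5% of cluster 7 cells, and no cell held more than 6.88% of a library's UMIs there. The interferon-gene cluster 14, part of the mature class, had 154 CPM against 103 in cluster 3. In erythroid-like cells, which should lack the gene, 0 of 119 cells had a UMI, with an upper 95% limit of 3.05%.

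Unnamed cluster 16 also held Csf1, at 153 and 141 CPM from 73 implanted and 30 non-implanted UMIs. It was a mixture led by Ptgds, Pf4 and Prss34. Its 11 cells with at least 3 basophil or mast cell markers, a subset chosen after the clusters were seen and 10 of them implanted, held 85 of the cluster's 103 Csf1 UMIs. These UMIs lay in 9 cells, with 23 in 1 cell, and made a level of 1130 CPM (903 to 1397) over the 11. Only 1 of the 11 was non-implanted, so the closeness of the library levels does not come from like numbers of such cells. In the same 11 cells were 38 of the 39 Csf2rb2 UMIs and 34 of the 57 Csf2rb UMIs of the cluster.

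**Figure D1:**
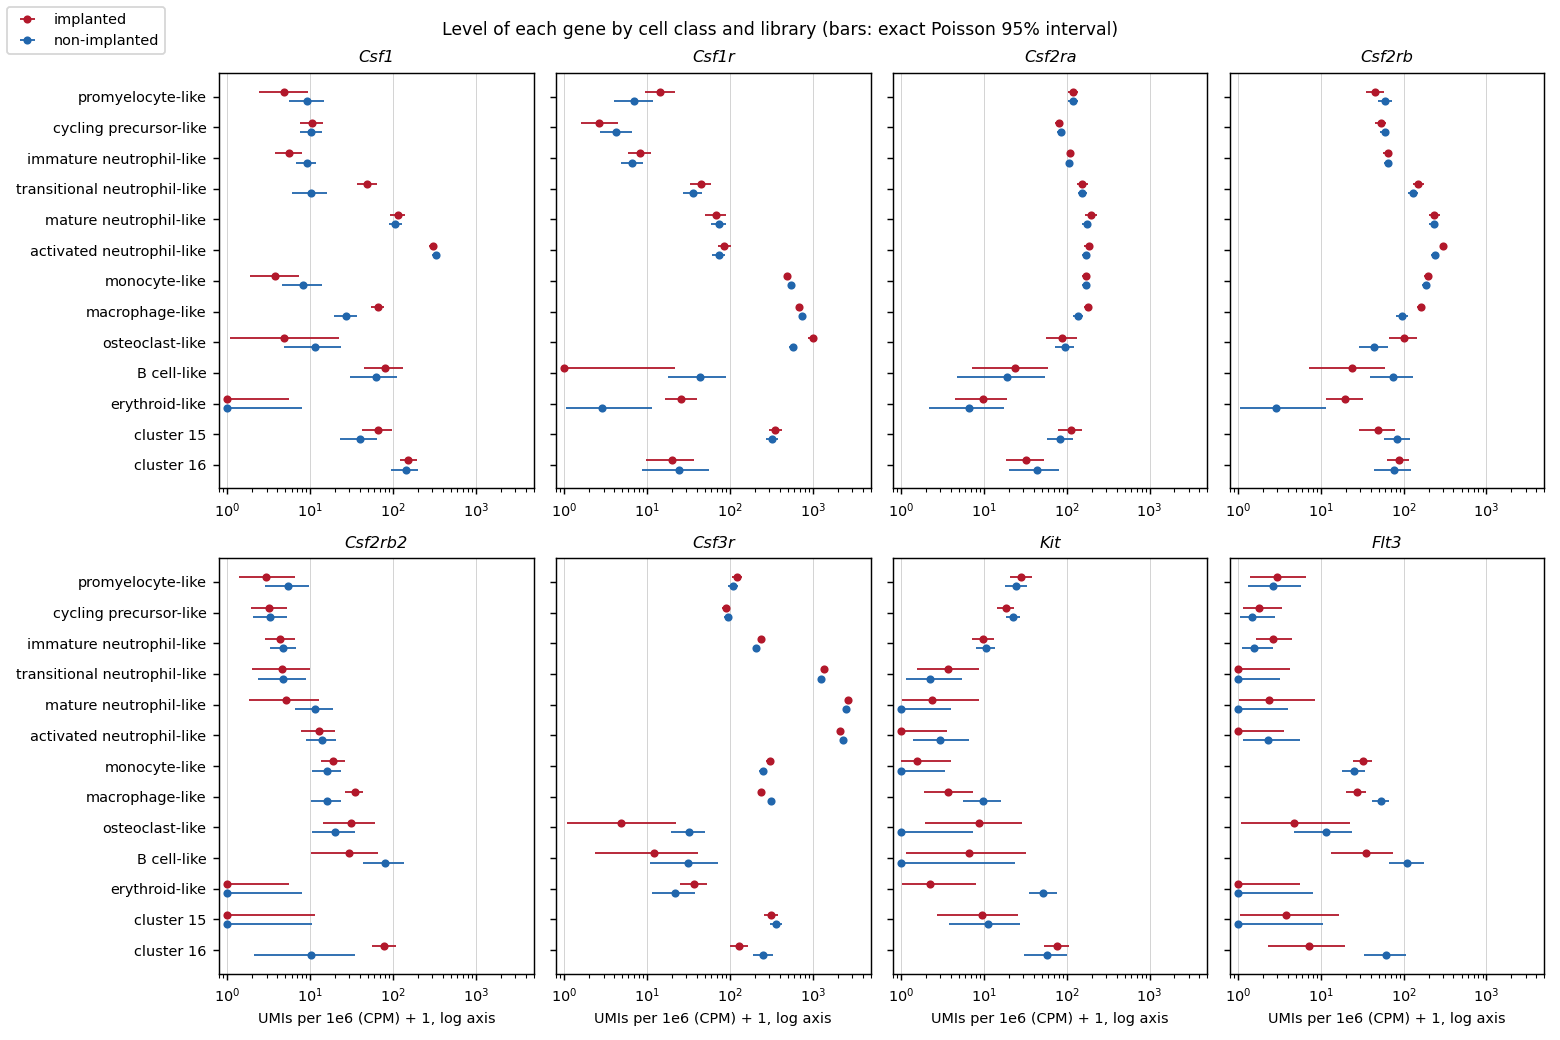
CPM plus 1 (log axis) of each gene in each cell class, implanted library in red and non-implanted in blue, with exact Poisson 95% intervals. Csf1 peaks in activated neutrophil-like cells, Csf1r in monocyte-like, macrophage-like and osteoclast-like cells, and Csf3r in mature and activated neutrophil-like cells, where its values lie between 2163 and 2685 CPM.

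Csf1r (chr18:61100598-61132149, plus strand), the receptor gene of that ligand, was highest in other cells. The 11 implanted osteoclast-like cells had 999.5 CPM (882 to 1128), and the 28 non-implanted ones 586 (525 to 652). Macrophage-like cells had 690 and 738 CPM and monocyte-like cells 490 and 545. Monocyte-like, macrophage-like and osteoclast-like cells together held most Csf1r UMIs, 73.4% in the first pair and 10.7% in the last. All 39 osteoclast-like cells had a Csf1r UMI, at a median of 21791 UMIs per cell, against 90.0% of monocyte-like cells at 6656.5. Unnamed cluster 15, led by Adgre4, Pparg and Ace, which are known from non-classical monocytes, had 354 and 324 CPM.

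Neutrophils contained low Csf1r counts that differed by stage. The share of cells with a UMI was 15.9% in mature and 17.5% in activated neutrophil-like cells, 3.63% in immature ones and 3.36% in erythroid-like cells. With every cell thinned to 1000 UMIs, these shares were 6.50%, 7.28%, 0.577% and 0.885%. The mature and activated shares thus lay above those of the erythroid-like class at equal depth. The macrophage marker list summed to 383 and 395 CPM in mature neutrophil-like cells, against 22980 and 17103 in macrophage-like cells. In mature cells the macrophage gene C1qa had 8.18 CPM and the monocyte gene Ccr2 was at 0. The part of such transcripts in the Csf1r values was not tested.

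Csf1 and Csf1r were seen in the same cell at shares that lay above or below the product of their separate shares, depending on the class. In activated neutrophil-like cells 54 of 1121 cells (4.82%) had both, and the product of the separate shares was 4.74%. Thinned to 1000 UMIs, 0.910% had both, with a product of 1.34%. In mature neutrophil-like cells 1.47% had both, with a product of 2.21% (thinned, 0.271% and 0.599%). In macrophage-like cells 44 of 527 (8.35%) had both, with a product of 6.97% (thinned, 2.51% and 1.71%, from 11 cells). Csf1 with Csf3r, the G-CSF receptor gene, was seen in 39 of the same 527 cells (7.40%), with a product of 4.18% (thinned, 1.37% and 0.734%, from 6 cells). The part of neutrophil transcripts in either pair was not tested.

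The GM-CSF receptor genes were broad. Csf2ra, the alpha chain, ranged from 79.3 to 198 CPM over the neutrophil, monocyte-like and macrophage-like classes of both libraries, with no class clearly highest. Mature neutrophil-like cells had 198 and 173 CPM, activated ones 184 and 170, monocyte-like cells 171 and 170, and macrophage-like cells 178 and 136. In the implanted library the intervals of all 4 overlapped. In 5 of 6 alternatives another class than the mature one came first, macrophage-like in 3 and activated in 2. Csf2rb, the shared signalling chain, ranged more widely, from 44.6 CPM in implanted promyelocyte-like to 298 in implanted activated neutrophil-like cells. Neutrophil classes held 72.2% of Csf2ra UMIs, 69.0% of Csf2rb UMIs and 72.7% of the UMIs of all genes. Erythroid-like cells had 7.58 and 12.1 CPM over both libraries. Both chains were seen together in 41.2% of monocyte-like cells, where the product of their shares was 40.0%, and in 24.3% of macrophage-like cells, where it was 16.7%. The clusters of the latter class differ in depth, and with cells thinned to 1000 UMIs, 8 of 438 cells (1.83%) had both, beside a product of 2.01%.

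Within the monocyte-like class, Csf2rb separated the clusters. Cluster 10, led by Vcan, had 263 and 260 CPM, and cluster 11, led by Hspa1a, 108 and 115. Csf2ra in the same clusters was 166 and 180 against 179 and 161 CPM.

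Csf2rb2, the interleukin 3 chain, was sparse, with 194 implanted and 147 non-implanted UMIs. Monocyte-like and macrophage-like cells held 41.1% of them. Cluster 16 held 37 implanted but 2 non-implanted UMIs, 19.1% and 1.36% of each library's. B cell-like cells had 28.3 and 79.3 CPM from 5 and 13 UMIs. All 18 of these UMIs lay in the 16 cells of that cluster with at least 3 plasmacytoid dendritic cell markers, which also held 18 of its 24 Flt3 UMIs and 13 of its 16 Csf2rb UMIs (a subset chosen after the clusters were seen). Il3ra, the interleukin 3 alpha chain, had 30.8 CPM in monocyte-like, 26.5 in macrophage-like and 37.1 in osteoclast-like cells.

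Csf3r, the G-CSF receptor gene, was highest in late neutrophils. Neutrophil classes held 89.1% of its UMIs. Mature cells had 2685 CPM (implanted) and 2523 (non-implanted), activated cells 2163 and 2297, and monocyte-like cells 301 and 249. It was found in 99.2% of mature and 73.3% of monocyte-like cells, against 6.72% of erythroid-like cells. Osteoclast-like cells, which were high in Csf1r, had 3.83 and 31.3 CPM. Macrophage-like cells, highest in Csf1r in the non-implanted library, had 240 and 312. Among macrophage-like clusters, Csf3r was 809 CPM in cluster 12, whose cells had a median of 1037.5 UMIs, and 64.8 in cluster 18. Neutrophil transcripts were also counted in this class. S100a8, an abundant neutrophil gene, had 16481 CPM in the macrophage-like cells of the implanted library and 26960 in those of the other, against 2169 in monocyte-like cells of both. The immature neutrophil list (8 of 8 markers found) summed to 21168 and 27907 CPM there, and the mature list (9 of 9) to 6038 and 5003. Their part in the Csf3r values was not tested.

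Among the neutrophil classes, Kit was highest in the early ones. Promyelocyte-like cells had 27.1 (implanted) and 23.7 CPM (non-implanted), cycling precursors 17.6 and 21.6, and immature neutrophil-like cells 8.86 and 9.61. The intervals of the first pair of classes overlapped in each library. Transitional, mature and activated cells had at most 2.68 CPM, from 0 to 3 UMIs per library. Promyelocyte-like and cycling precursor-like cells held 53.9% of Kit UMIs, and 24.0% of promyelocyte-like cells had one, against 0.134% of mature neutrophil-like cells, where the median cell held 12020 and 2492 UMIs. At 1000 UMIs per cell, a Kit UMI was left in 1.5% of promyelocyte-like (95% interval 0.411% to 3.81%), 2.28% of cycling precursor-like (1.18% to 3.95%) and 1.28% of immature cells (0.785% to 1.97%), and in 0 of 738 mature ones (upper limit 0.499%). At equal depth the order of the early classes could thus not be told. Erythroid-like cells had 1 implanted and 27 non-implanted Kit UMIs, the latter in 3 cells. Cluster 16 had more, at 75.5 and 56.5 CPM. There, 41 of 48 Kit UMIs lay in its 14 cells with at least 3 stem or progenitor markers, and 21 in its 11 basophil or mast cell marker cells. These subsets share cells, and in each of them 12 of the UMIs came from 1 cell.

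Flt3 UMIs were few (130 and 161) and came mostly from outside the neutrophils. Of the named classes, B cell-like cells had the highest level over both libraries. It came from 6 and 18 UMIs, mostly in the cells with plasmacytoid dendritic cell markers. Monocyte-like cells had 31.3 and 24.2 CPM, macrophage-like cells 26.1 and 52.1, and transitional neutrophil-like cells 0 in both. Monocyte-like and macrophage-like cells held 75.3% of the UMIs. Cluster 8 was led by the MHC class II genes H2-Eb1 and H2-Ab1. It scored slightly higher for dendritic cell (2.06) than for macrophage markers (2.00) and was named macrophage-like from its leading genes. Of its 122 Flt3 UMIs, 108 were in its 130 cells with at least 3 dendritic cell markers (88.3 CPM against 13.2 in the other 159 cells). The same 130 cells had less Csf1r (561 against 1033 CPM) and 16 of the 18 Kit UMIs. The marker-bearing subsets were chosen after the clusters were seen. In cluster 18, another macrophage-like cluster, no Flt3 or Kit UMI was found.

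**Figure D2:**
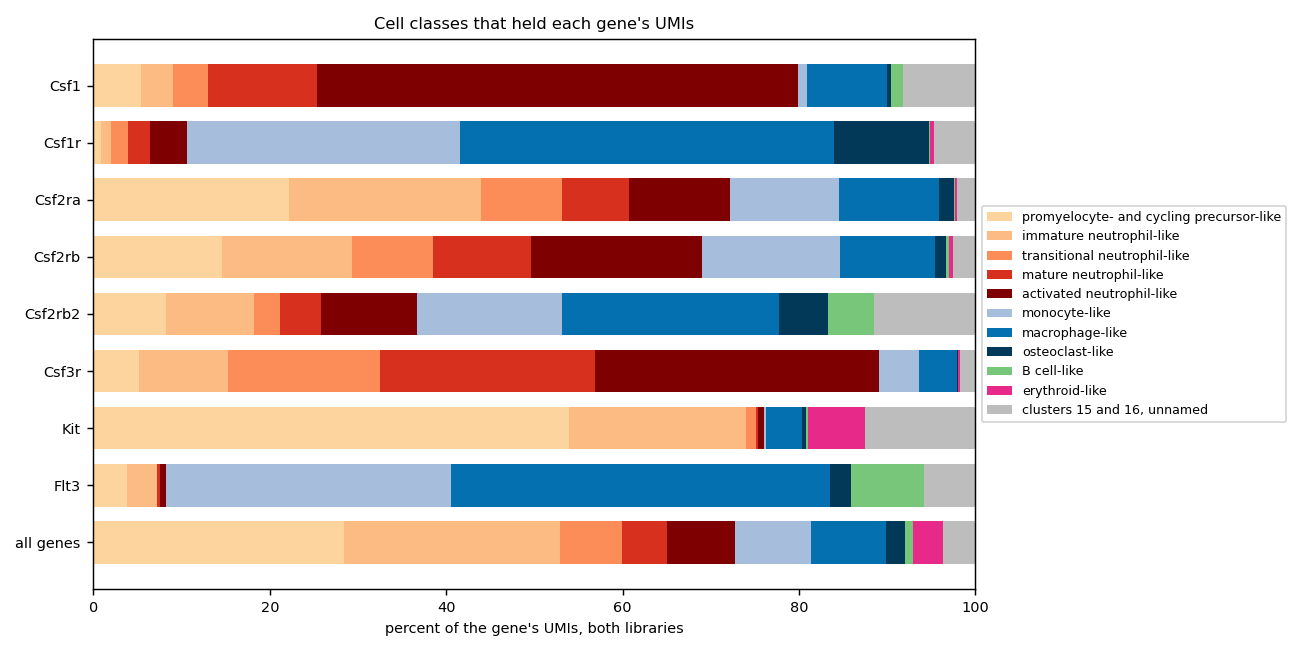
Share of each gene's UMIs (percent, both libraries) in each cell class, with all genes as the last bar. Red shades are neutrophil classes from early (light) to activated (dark), blue shades monocyte-like, macrophage-like and osteoclast-like cells. Csf3r and Csf1 are mostly red, Csf1r and Flt3 mostly blue, and the red part is 72.2% for Csf2ra and 69.0% for Csf2rb beside 72.7% for all genes.

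Other ligands and receptors of the pathway were mostly scarce in these CD11b-selected cells. Csf2 (GM-CSF) had 1 UMI in all, Csf3 (G-CSF) 32, of which 12 were in monocyte-like cells, and Il34, the second Csf1r ligand, 28. Il3, Il5 and Thpo were at 0. Kitl, the Kit ligand, had 195 UMIs, 152 of them in macrophage-like cells (45.8 CPM), where Kit had 5.42 CPM over both libraries. Epor, the erythropoietin receptor, had 174 of 200 UMIs in erythroid-like cells. Il5ra had 26 of 29 UMIs in B cell-like cells, and Ptprz1, a second receptor of the Il34 protein, 45 of 52 in cluster 16. Epo had 280 UMIs over every class, between 1.45 and 14.7 CPM. Since Itgam was listed at 0 in cells selected for its protein, a value at or near 0 may also reflect how genes were annotated, and so may the spread of Epo. This was not resolved. Sdc1, a syndecan, had 92 UMIs, 45 in macrophage-like cells.

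Along neutrophil maturation, 6 of the 8 genes were higher in late cells and Kit was lower. Late cells are the mature and activated classes together, early cells the promyelocyte-like and cycling precursor-like classes. A gene counted as past the fold at 1.5 in the ratio of CPM plus 5, with at least 20 UMIs. Csf3r was 2339 CPM late against 97.7 early in the implanted library and 2397 against 98.4 in the non-implanted, a log2 ratio of 4.51 and 4.54. Csf1 was 238 against 7.82 and 230 against 8.99 CPM (log2 ratio 4.24 and 4.07). These had the largest increases of the set in both libraries.

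Csf1r was 79.1 CPM late against 5.15 early and, in the non-implanted library, 72.5 against 4.15 (log2 ratio 3.05 and 3.08). Csf2rb had log2 ratios of 2.37 and 1.92, and Csf2ra 1.02 and 0.82, so the signalling chain rose more than its alpha chain in each library. Csf2rb2 had 1.01 and 1.09, from 9.25 against 2.10 and 11.8 against 2.94 CPM. Kit fell by 2.22 and 2.17 on the log2 scale, from 20.4 to 0.462 and from 22.3 to 1.08 CPM. Flt3 had too few UMIs for this comparison.

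Of the 7 genes tested, 6 were thus higher in each library, where 23.6% of 9807 (implanted) and 24.2% of 9955 genes (non-implanted) were. The 1 lower gene stands beside 42.9% and 40% of all genes. The median log2 ratio of the 7 was 2.37 and 1.92, against -0.38 and -0.30 over all genes tested. Total UMIs per cell fell along the same axis, from a median of 13542 in cycling precursor-like to 2387 in activated neutrophil-like cells. Counted per 100 cells, Csf3r rose from 131 UMIs in cycling precursor-like to 596 in activated cells, Csf1 from 13.6 to 83.9 and Csf1r from 3.58 to 21.0. Csf2ra fell from 118 to 47.2 UMIs per 100 cells. Csf2rb had 65.9 in promyelocyte-like, 79.3 in cycling precursor-like and 71.2 in activated cells. Between the cycling and activated classes it went from 71.3 to 78.5 in the implanted and from 87.5 to 64.2 in the non-implanted library. Csf2rb2 had 3.20 in cycling precursor-like and 3.30 in activated cells. The higher CPM of Csf2ra late in maturation thus went with fewer UMIs per cell, and that of Csf2rb and Csf2rb2 with no clear change in them.

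A score from marker genes, which used none of the 8, ordered the neutrophils into 5 ranges of about equal size. Over both libraries Csf3r was 100 CPM in the first range and 184, 783, 2036 and 3018 in the next. Csf1 was 7.40, 7.22, 32.5, 115 and 345 CPM. In CPM, Csf3r was therefore higher in the second range than in the first, while Csf1 was near its first level. The median cell held 10396 UMIs in the first range and 5981 in the second. Counted per 100 cells, Csf3r went from 112 to 136 UMIs between these ranges and Csf1 from 8.29 to 5.34. Kit was 15.7, 14.7, 9.43, 1.03 and 0.897 CPM, Csf2rb went from 51.8 to 316 and Csf2ra from 91.2 to 194. From the first to the last range, UMIs per 100 cells went from 58.0 to 69.6 for Csf2rb and from 102 to 42.7 for Csf2ra. A range of a score is not a cell type.

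**Figure D3:**
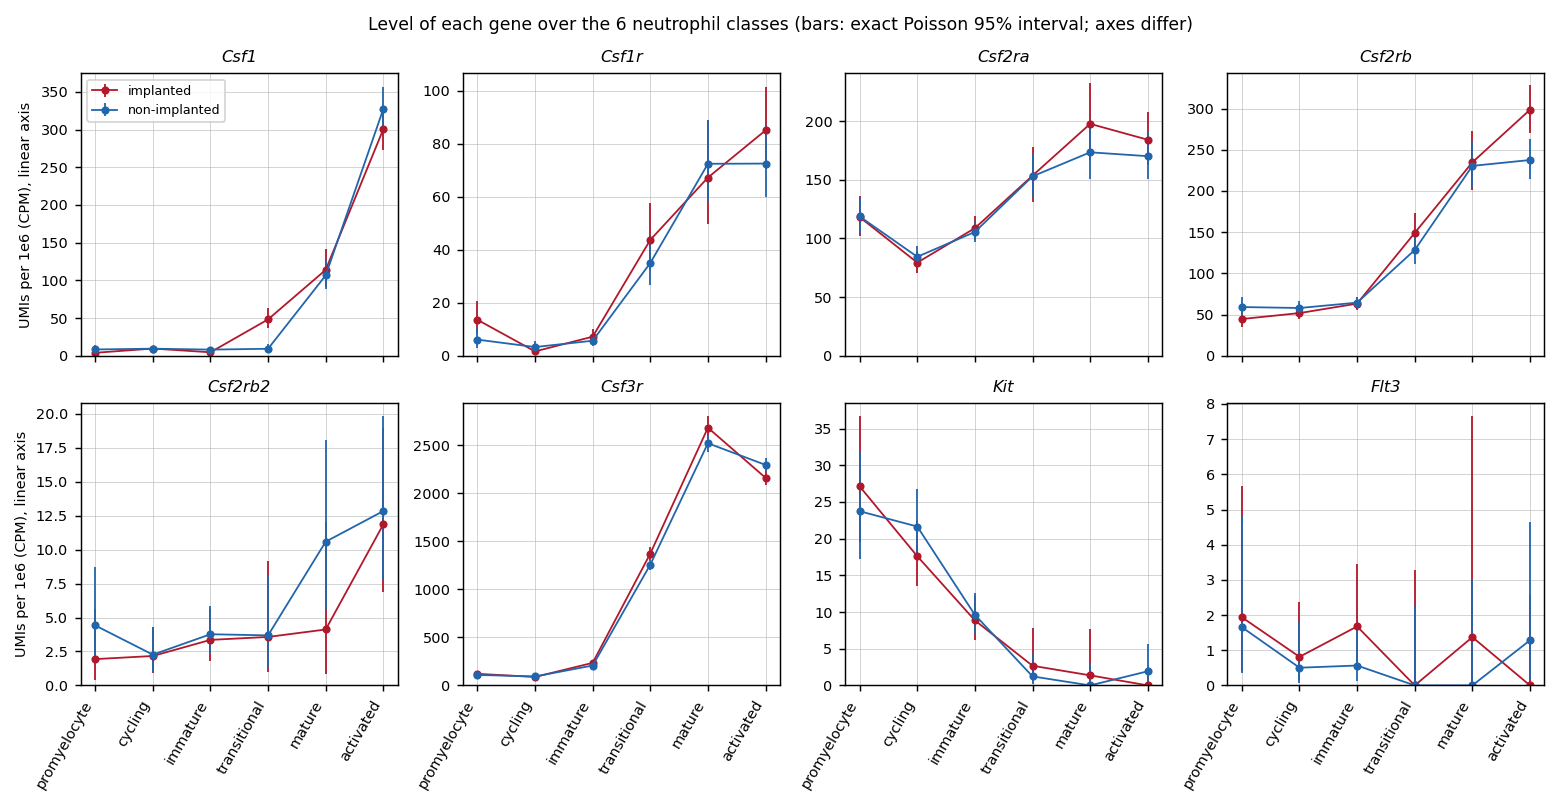
CPM (linear axes, which differ between panels) of each gene over the 6 neutrophil classes from promyelocyte-like to activated, implanted in red and non-implanted in blue, with exact Poisson 95% intervals. Csf3r rises at the transitional and mature classes, Csf1 at the mature and again at the activated class, Kit falls, and Flt3 stays at or below 1.94 CPM. The widest gap between the libraries in Csf1 is in the transitional class (48.2 and 9.21 CPM), and in Csf1r the promyelocyte-like class differs (13.6 and 6.07).

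Of the pathway list, 19 of 36 tested genes were higher late in the implanted library and 5 lower, beside 23.6% and 42.9% of all genes. In the non-implanted library 19 and 5 of 34 were, beside 24.2% and 40%. The list's median log2 ratio was 0.88 and 0.91, against -0.38 and -0.30 over all genes. The largest increases were Pim1, a kinase gene induced by cytokine receptors (29.2 to 1301 CPM in the implanted library), and Socs3, a feedback inhibitor of the G-CSF receptor (2.67 to 120 CPM). The others higher in both libraries were the signalling genes Jak1, Jak2, Stat3 and Stat5b, the survival genes Mcl1 and Bcl2l1, and the kinases Lyn, Fgr and Syk. The adaptors and regulators Gab2, Grb2, Inpp5d and Tyrobp, the shedding protease Adam17, and the transcription factors Cebpb and Spi1 were also higher. Cish was past the fold in the implanted and Socs1 in the non-implanted library. All of these are calls in CPM. Total UMIs per cell fell along the same axis, so a higher CPM need not mean more UMIs per cell. Counts per cell were not compared for the pathway list. Lower in both were Cebpe (657 to 27.8 CPM in the implanted library) and Gfi1, factors of granule-stage neutrophils, and Cblb, Shc1 and Il3ra. Cebpe is also in the immature neutrophil marker list that helped name the classes, so its fall is no independent result.

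Between the libraries, 0 of the 8 genes differed by 1.5-fold over all cells, where 2.72% of 15058 genes did in either direction. Csf2rb2 was nearest, at 10.5 CPM implanted against 7.22 non-implanted (ratio 1.46, exact conditional 95% interval 1.17 to 1.82), and 37 of the 194 implanted but 2 of the 147 non-implanted UMIs were those of cluster 16. Csf3r was 504 against 563 CPM (ratio 0.895, 0.871 to 0.920) and Csf1r 155 against 133 (1.16, 1.10 to 1.23). Csf1, Csf2ra, Csf2rb, Kit and Flt3 had ratios between 0.893 and 1.11. Such values over all cells also carry the class sizes, so classes with at least 100 cells in each library were compared next.

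**Figure D4:**
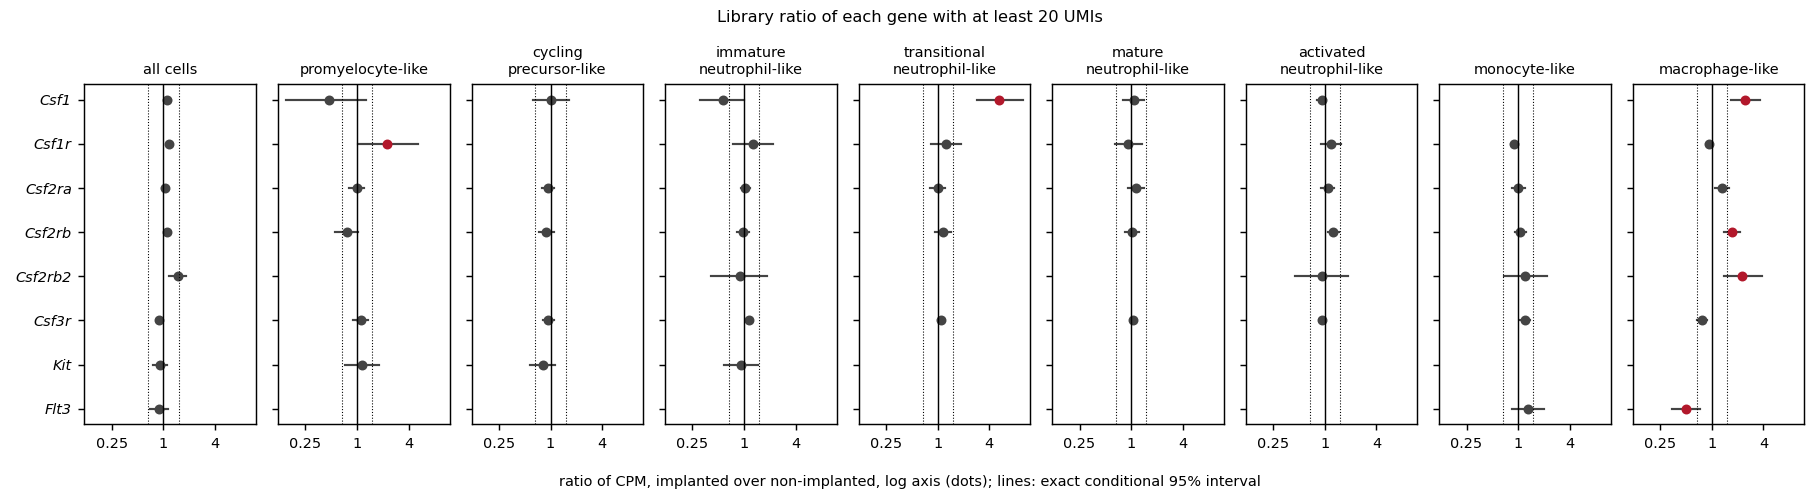
Ratio of CPM, implanted over non-implanted (log axis), of each gene with at least 20 UMIs, over all cells and in each class, with exact conditional 95% intervals. Dotted lines mark 1.5-fold in the plain ratio, and red dots the genes past the fold in CPM plus 5. A dot outside the lines can thus be grey, as for Csf1 in promyelocyte-like (6 and 15 UMIs) and immature neutrophil-like cells (19 and 43 UMIs). Most dots lie between the dotted lines; 4 red dots are in the macrophage-like class and 1 each in the promyelocyte-like and transitional neutrophil-like classes.

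In macrophage-like cells 4 of 7 tested genes were past 1.5-fold, where 17.2% of 9880 genes were. Of these, 3 were higher and 1 lower, beside 8.54% and 8.62% of all genes. Csf1 was 64.7 CPM implanted against 26.4 non-implanted (ratio 2.45, 1.69 to 3.62), from 119 and 39 UMIs in 11.3% and 7.41% of cells. Csf2rb was 163 against 95.4 CPM (1.71, 1.40 to 2.10) and Csf2rb2 33.7 against 14.9 (2.26, 1.37 to 3.87). Flt3 was lower, at 26.1 against 52.1 CPM (0.501, 0.342 to 0.728). Csf1r was 690 against 738 CPM (0.935), Csf2ra 178 against 136 (1.31) and Csf3r 240 against 312 (0.767). The dendritic cell marker list of the class summed to 7295 CPM in implanted and 10315 in non-implanted cells, and the macrophage list to 22980 and 17103. The activated neutrophil list (9 of 9 markers found) summed to 8125 and 5778 CPM. The part of this makeup in the differences was not tested.

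The clusters of the class were filled unequally. Cluster 8, whose name was a near tie between dendritic cell and macrophage, had 126 implanted and 163 non-implanted cells. Cluster 12 had 95 and 77, and cluster 18, led by Mmp12, Spp1 and Gpnmb, had 63 and 3. In the 63 implanted cells of cluster 18, Csf2ra had 259, Csf2rb 207 and Csf2rb2 60.3 CPM, with Flt3 and Kit at 0. Without that cluster 1 of the genes was past 1.5-fold in the class. Within cluster 8, Csf1 was 61.9 against 17.9 CPM (ratio 3.45, 2.11 to 5.84), in 16 and 14 cells, where the highest cell held 29.0% and 30.4% of the UMIs. Csf2rb in cluster 8 was 142 against 92.8 CPM (1.53, 1.19 to 1.97), Flt3 46.9 against 58.5 (0.802, 0.545 to 1.17), and Csf2rb2 had a ratio of 0.975. Without cluster 8, the log2 ratio of Csf1 in the class went from 1.15 to -0.24.

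In transitional neutrophil-like cells, 1 of 5 tested genes was past the fold, where 7.15% of 5834 genes were. Csf1 was 48.2 CPM implanted against 9.21 non-implanted (ratio 5.23, 2.91 to 9.98), from 54 and 15 UMIs in 24 of 342 and 10 of 481 cells. The activated neutrophil marker list in these cells summed to 2228 and 2109 CPM. By the maturation score, Csf1 in the third range was 37.4 implanted against 28.4 CPM non-implanted, in the fourth 133 against 101, and in the fifth 341 against 347. The difference was smaller over these ranges than in the class, but they are other sets of cells. The third held 468 transitional cells beside 319 immature, 79 mature and 115 activated ones. The fourth held 277 beside 371 mature and 357 activated ones. The ranges thus do not tell how large the difference was among transitional cells alone. The log2 ratio of 1.90 became 0.20 with no doublets removed and 0.18 with the 8 genes and the pathway list used in clustering.

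Among promyelocyte-like cells, Csf1r was past the fold, 13.6 against 6.07 CPM from 21 and 11 UMIs (ratio 2.23, 1.03 to 5.13), as 1 of 6 tested genes beside 10.3% of all. The call was kept in 5 of 11 alternatives. In the same cells the monocyte gene F13a1 was 57.5 against 3.86 CPM (89 and 7 UMIs), Ccr2 7.10 against 2.21 and C1qa 21.3 against 9.38. The macrophage list summed to 185 CPM (8 of 10 markers found, Ms4a7 and Cd163 at 0) against 82.8 (10 of 10), and the monocyte list to 772 (10 of 10) against 737 (8 of 10, Ms4a4c and Ace at 0). The part of such transcripts in the Csf1r difference was not tested. In cycling precursor-like cells 0 of 5 were past it (2.06% of all genes), in immature neutrophil-like cells 0 of 7 (1.87%), in mature ones 0 of 5 (10.7%), in activated ones 0 of 6 (7.88%) and in monocyte-like cells 0 of 6 (6.23%). Csf2rb in activated neutrophil-like cells was 298 against 237 CPM (1.26, 1.09 to 1.45). Csf3r in monocyte-like cells was 301 against 249 (1.21, 1.06 to 1.38) and Csf1r there 490 against 545 (0.898, 0.816 to 0.988). These intervals leave out 1, but the differences stay under the fold.

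Of the pathway list, 5 of 46 tested genes were higher over all cells in the implanted library, beside 2.56% of all genes. They included the receptor gene Epor (ratio 2.46), Sdc1 (4.25) and the transcription factor Gata2 (14.4). These ratios over all cells also carry the class sizes. Erythroid-like cells, which held most Epor UMIs, numbered 78 implanted and 41 non-implanted, and Gata2 is in the stem or progenitor marker list. The part of cell makeup in these ratios was not tested. In macrophage-like cells 6 of 37 were higher, beside 8.54% of all genes, including Il3ra (2.14), Jak2 (1.78), Pim1 (1.65), Klf4 (1.66) and Sdc1 with 45 UMIs against 0. In the same cells 3 were lower, beside 8.62%: Kitl (0.617), Stat5b (0.412) and Cebpe (0.443). In activated neutrophil-like cells 3 of 30 passed the fold, beside 7.88% of all genes, with Jak2 (1.67) and Cish (4.62) higher and Cebpa (0.380) lower. In monocyte-like cells 1 of 35 did (Cish, 3.56), beside 6.23%. In promyelocyte-like cells 2 of 32 did, beside 10.3%, with Klf4 (3.64) higher and Stat5a (0.413, 0.133 to 1.10) lower.

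Over the 19 clusters, the genes whose levels followed each of the 8 most closely were named by Pearson's r of log2(CPM + 5) among 9411 genes, as a description. For Csf1 they were Pdcd1lg2 (0.87), Ptk2b (0.87) and the neutrophil marker Ifitm1 (0.85), for Csf1r Cd68 (0.95), Cst3 (0.94) and Ctsa (0.94), and for Csf3r Ccdc180 (0.96), Ppp1r3b (0.95) and Atg2a (0.94). For Csf2ra they were Sema4a, Anxa2 and the integrin gene Itgb2 (0.92 each), for Csf2rb Rbms1 (0.94), Card19 (0.94) and Hif1a (0.93), and for Csf2rb2 Ubald1 (0.88), Cerk (0.87) and Micall1 (0.85). For Kit they were Nedd4 (0.91), Rida (0.84) and Dnajc6 (0.82), and for Flt3 Hdac9, Dpp4 and the MHC class II regulator Ciita (0.91 each). Between members the highest r was that of Csf2ra and Csf2rb (0.82), followed by Csf2rb and Csf3r (0.71), while the ligand Csf1 and its receptor Csf1r had 0.15. The points share 2 libraries and differ in depth.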

How the data were processed

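Gene expression was measured in 2 droplet-based 3' libraries of CD11b-selected mouse cochlear cells. The deposited matrices hold raw UMI counts per gene and barcode, and Cell Ranger 3.0.1 made them, per the file headers. Cell Ranger, Seurat and the build mm10 (GRCm38) are named in the submitters' processing notes. The annotation release is not given in the sources used here. The dissection protocol in the labels (stria vascularis of P1 and P30 mice) differs from the series design text, which was followed. The 107 rows that are no gene held 11 UMIs per library and were left out.

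The implanted library had 3231 barcodes and 19593003 UMIs, the non-implanted 3572 and 21577033. Cells with at least 200 genes and at most 10% mitochondrial UMIs were kept (82 and 59 left out), and the highest doublet scores (Scrublet in scanpy 1.11.5, 0.8% per 1000 barcodes) were removed (84 and 102). Cells of both libraries were clustered together (2000 variable genes, 30 components, 15 neighbours, Leiden resolution 1.0, leidenalg 0.10.2) without the 8 genes and the 52 pathway genes, and named by lists of 26 cell types. The naming lists hold Cebpe, Gata2 and Irf8, which are also pathway genes. Of the pathway genes 51 were measured, because Flt3l has 2 rows, and Irf8 was listed at 0. With 1 library per group no p-value is given. Intervals are exact Poisson, conditional or Clopper-Pearson at 95%. A gene with at least 20 UMIs was past the fold at 1.5 in CPM plus 5. Some pathway genes are in the counts and are not reported here by name. All 8 genes were named, pathway genes where past the fold with an interval that leaves out 1, and ligands and receptors in any class. The fold calls were tested on simulated data. Narrower spellings of the NF-kB consensus were searched before the general one that is reported. The genes, lists and classes were chosen with earlier results of these data known.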

Additional observations from a re-analysis of the deposited data

How the results depend on the processing

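The alternatives included other cell filters, doublet numbers, clusterings, pseudocounts, thinning to 1000 UMIs, or a cluster left out. Of 880 alternative values for the 8 genes, 753 stayed within the counting error of the main value, 124 moved beyond it and 3 reversed. A further 33 had fewer than 20 UMIs and gave no value. For differences past 1.5-fold, 237 of 256 alternatives kept the call. Every call along maturation for Csf1, Csf1r, Csf2ra, Csf2rb, Csf3r and Kit was kept in every alternative that gave a value.

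The reversals concerned Csf1 in macrophage-like cells (log2 ratio 1.15), which was -0.12 with the 8 genes and the pathway list among the variable genes, -0.21 at resolution 2 and -0.24 without cluster 8. In the first 2 of these, cluster 8 took a dendritic cell name and left the class. Csf1 in transitional neutrophil-like cells ranged from 0.18 to 2.52, Csf1r in promyelocyte-like cells from 0.14 to 1.08 (5 of 11 calls kept), and in macrophage-like cells Csf2rb from 0.54 to 1.01, Csf2rb2 from 0.21 to 2.57 and Flt3 from -0.97 to -0.19.

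Counts of the 8 genes past 1.5-fold also moved. In promyelocyte-like cells the count of 1 became 0 with at least 500 genes and at most 5% mitochondrial UMIs, at resolution 0.5, thinned and with a pseudocount of 20, and 2 with no doublets removed, with a pseudocount of 1 and centred on the median gene. In transitional neutrophil-like cells 1 became 0 with no doublets removed and with the 8 genes among the variable genes. A count of 0 became 1 in immature neutrophil-like cells with the genes among the variable genes, with a pseudocount of 1 and without cluster 6. It became 1 in mature ones with 2 times as many doublets removed, with separate clustering, thinned and without cluster 3, in activated ones under the stricter cell filter, and in monocyte-like cells with separate clustering and without cluster 10. In macrophage-like cells 4 became 2 when thinned, where Csf2rb2 and Flt3 had fewer than 20 UMIs and could not be called. It also became 2 as the mean of per-cell CPM, and 1 without cluster 18. Thinned, the genes lower late in maturation went from 1 to 0 in both libraries, where Kit had fewer than 20 UMIs, and the class with the highest level was the same for 4 of 8 genes. Alternatives with fewer than 20 cells of a name in a library were not run: promyelocyte-like and transitional with separate clustering, and cycling precursor-like and transitional at resolution 0.5.

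No paired analysis was possible because each group is 1 library and no test was run. Depth limits Flt3, Kit and Csf2rb2 most, with 291, 438 and 341 UMIs in all.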
